A study of Mus musculus with 64 samples.

Results

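The clustered histone genes are the canonical histone genes that lie side by side in the mouse genome and carry the symbols Hist1h, Hist2h, Hist3h and Hist4h. Every row of the count table with such a symbol was taken, apart from 1 symbol marked as a pseudogene, which gave 70 of 45708 genes. They are 6 genes of the linker histone H1, 20 of H2A, 19 of H2B, 12 of H3 and 13 of H4. By symbol, 56 belong to the Hist1 cluster, 11 to Hist2, 2 to Hist3 and 1 to Hist4. In the GRCm38 annotation (GENCODE M21), 68 of the 70 were found: 54 on chromosome 13 between 21715763 and 51203065, 11 on chromosome 3 between 96219865 and 96279001, 2 on chromosome 11 between 58948920 and 58956830, and 1 on chromosome 6, Hist4h4, at 136801553 to 136804415. On chromosome 13, Hist1h2al lies alone at 51202727 to 51203065, and every other member there ends by 23934851. Hist1h2al and Hist1h2aj are annotated as pseudogenes and 1 Hist2h2bb row as a long noncoding RNA, and these rows were kept. Of the 68, 62 were annotated with a single exon. The symbol Hist2h2bb stood under 2 identifiers, so the 70 rows hold 69 distinct symbols.

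H2A, H2B, H3 and H4 form the protein core that DNA is wound around, and H1 binds the DNA where it enters and leaves that core. Most canonical histone genes are transcribed in S phase, when the cell copies its DNA, and their mRNAs end in a short stem-loop bound by the protein Slbp instead of in a poly(A) tail. Kits that select poly(A) tails therefore lose most of these mRNAs, whereas the libraries here were made from total RNA.

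The histone stem-loop, a hairpin of 16 bases, was found in the transcripts of 42 of the 68 annotated genes (4 H1, 11 H2A, 8 H2B, 8 H3 and 11 H4). It was found in 15 of 55382 other annotated genes (0.027%). The search covered only annotated transcripts and 1 fixed sequence pattern. Some of the 26 genes without a match have short annotated transcripts, such as Hist1h4k (312 bases) and Hist1h2ah (405 bases). A hairpin beyond the annotated end would have been missed. Windows of 30 bases around it follow for 7 genes that carry the main results, 5′ to 3′ on the gene's strand from GRCm38, with the hairpin in capitals.
Hist4h4: ccacaaaGGCCCTTTTCAGGGCCcacaaag
Hist1h3e: ccaaaacGGCTCTTTTAAGAGCCacctcca
Hist2h2ac: ccaaaaaGGCTCTTTTTAGAGCCaccaaat
Hist1h1c: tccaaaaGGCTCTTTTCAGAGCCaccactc
Hist1h1d: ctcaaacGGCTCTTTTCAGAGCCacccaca
Hist1h1e: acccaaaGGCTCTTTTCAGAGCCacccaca
Hist3h2a: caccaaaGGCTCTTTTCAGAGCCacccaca
The hairpins lie at chr6:136803998-136804013 for Hist4h4 (minus strand), chr13:23561903-23561918 for Hist1h3e (minus), chr3:96220418-96220433 for Hist2h2ac (minus) and chr13:23739512-23739527 for Hist1h1c (plus). Hist1h3f carried the same window as Hist1h3e. The annotated transcript went on past the hairpin by 57 bases in Hist2h2ac, 369 in Hist1h3e, 840 in Hist1h1c, 2445 in Hist4h4 and 4884 in Hist1h1d. The table has 1 count per gene, so transcripts that end at the hairpin and longer ones were not told apart.

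The 130 bases before the RefSeq start (GRCm38.p6) of the H1 genes Hist1h1c, Hist1h1d and Hist1h1e are printed because these 3 genes were called together in KO libraries after repopulation. They lie at chr13:23738677-23738806 (plus strand), chr13:23554902-23555031 (plus) and chr13:23622559-23622688 (minus). Capitals mark AAACACA (the H1 box), CCAAT, and TATAAA where present.
Hist1h1c: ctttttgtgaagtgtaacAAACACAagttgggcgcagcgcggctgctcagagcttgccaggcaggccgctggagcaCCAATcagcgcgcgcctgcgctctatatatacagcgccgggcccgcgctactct
Hist1h1d: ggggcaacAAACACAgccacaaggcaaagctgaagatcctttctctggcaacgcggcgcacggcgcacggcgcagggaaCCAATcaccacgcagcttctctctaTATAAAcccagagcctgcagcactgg
Hist1h1e: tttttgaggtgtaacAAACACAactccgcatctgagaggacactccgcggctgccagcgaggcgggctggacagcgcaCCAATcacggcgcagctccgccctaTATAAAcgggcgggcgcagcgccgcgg
AAACACA starts 112, 122 and 115 bases before the start of Hist1h1c, Hist1h1d and Hist1h1e, and CCAAT starts 54, 51 and 52 bases before it. Searched on both strands of 300 bases (250 before to 50 after the start) in 64 promoters of 63 histone genes, AAACACA was present in 14.06%, among them 5 of 6 H1 promoters, against 7.18% of all 32851 promoters. CCAAT was present in 85.94% against 37.41%, TATAAA in 54.69% against 13.62%, and ATTTGCAT, the octamer of H2A and H2B promoters, in 23.44% against 1.74%. The 15 promoters with ATTTGCAT were 7 H2A and 8 H2B promoters.

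The RNA came from microglia, the macrophages that live in brain tissue, sorted from whole mouse brain after staining for CD11b and CD45.2. The genotypes are RISP KO, RISP Het and RISP WT. RISP is the Rieske iron-sulfur protein of mitochondrial complex III, encoded by Uqcrfs1. Animals were naive, on PLX3397, which removes microglia (depletion), allowed to recover after it (repopulation), or on cuprizone, which removes myelin. All were labelled adult except 3 old Het libraries, and the labels used here give no dose, day, sex or age in weeks. The table also lists a CreERT2 transcript, with counts in every library, WT included, so all groups compared carried it; the promoter that drives it is not given in the sources used here. Nothing states that replicates came from separate animals, so p-values measure only the spread between these libraries.

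The 64 libraries fell into 4 kinds by total count and by how large a share of it fell on the noncoding RNAs Gm26917 and Yam1, and comparisons were made only inside a kind. The first kind has 34 libraries with 0.069% to 0.276% of counts on these 2 RNAs and totals of 9.32 to 16.3 M: naive KO 1 to 5, Het 1 to 4 and WT 1 to 5, with all depletion (2 KO, 2 Het, 4 WT) and repopulation libraries (4 of each genotype). The second has 13 naive libraries, KO 6 to 11 and Het 5 to 11, with shares of 3.59% to 5.80% and totals of 6.38 to 11.7 M. The third has the 10 cuprizone libraries (6 KO, 4 Het), with 2.22% to 6.70% and 2.695 to 5.10 M. The fourth has 7 deeper libraries of 15.9 to 24.03 M, the 3 old Het and the adult Het and KO 12 and 13. Uqcrfs1 was lower in every KO library than in every Het or WT library of its kind, for example 1.17 to 3.26 CPM (counts per M of the library's total) in the 6 KO and 9.34 to 17.7 CPM in the 7 Het libraries of the second kind (log2 fold change -2.57 ± 0.28 SE, adjusted p = 9.49e-05). The 10 microglia markers summed to 35006 to 52272 CPM in the first kind, 19727 to 26664 in the second, 19506 to 26580 in the third and 13152 to 30906 in the fourth.

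Summed over the 70 genes, histone transcripts made up 129 to 439 CPM (median 180) of the first kind, 663 to 4111 CPM (median 2026) of the second, 621 to 1681 CPM (median 1230.04) of the third and 747 to 1581 CPM (median 1167) of the fourth. These levels are given side by side without a test, because the kinds were separated on other library properties. The make-up of the sum also differed: H1 genes held a median of 23.25% of it in the first kind and 57.89%, 44.57% and 47.94% in the others, and H2A genes held 53.8%, 18.39%, 26.01% and 22.4%. Per kilobase of the longest annotated transcript, the highest mean levels over all libraries of the first kind were those of the H2A gene Hist1h2ap (36.12 CPM per kb), the H1 gene Hist1h1c (35.35) and the H2A gene Hist2h2aa1 (24.01). The Hist1h1c mean includes KO libraries of up to 249 CPM. In the second kind the highest means were those of Hist1h1c (364.36), Hist1h2al (251.38), an H2A-like processed pseudogene by its annotation, and the H1 gene Hist1h1e (216.76). Of the 70 genes, 1 (Hist2h3c1) had 0 counts in all 64 libraries.

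**Figure D1:**
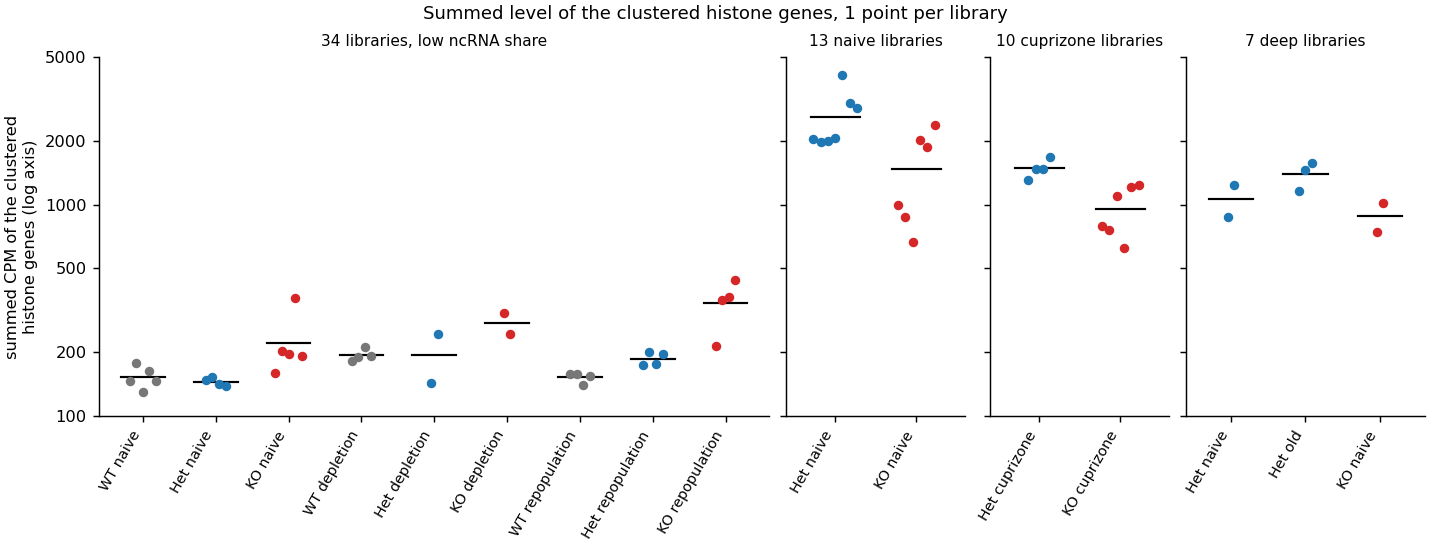
Summed CPM of the 70 clustered histone genes in each library on a log axis, by library kind and group; points are libraries (WT grey, Het blue, KO red) and lines are group means. The 34 libraries with low noncoding RNA share lie between 129 and 439 CPM and the other 30 between 621 and 4111 CPM.

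In naive microglia of the second kind, 5 histone genes fell in KO against Het and 0 rose: the H4 gene Hist4h4, the H3 genes Hist1h3e and Hist1h3f, and the H2A rows Hist2h2ac and Hist1h2al. These are 5 of 51 histone genes tested (9.8%), where 4.28% of all 12677 genes tested were called lower and 2.89% higher. The median log2 fold change was -0.45 over the 51 histone genes and -0.01 over all genes, and 36 of the 51 were below 0. Hist4h4 was at 5.25 to 7.15 CPM (median 6.16) in the 6 KO libraries and at 13.5 to 52.2 CPM (median 26.7) in the 7 Het libraries. Every KO library lay below every Het library, and the KO values were within a narrow band while the Het values spread widely. The fall was 3.92-fold (log2 fold change -1.97 ± 0.27 SE, adjusted p = 0.000531).

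The H3 genes gave the next largest falls. Hist1h3e was at 4.05 to 12.3 CPM (median 9.50) in KO and 17.4 to 43.3 CPM (median 30.4) in Het, and Hist1h3f at 2.41 to 3.68 CPM (median 2.85) against 5.49 to 10.7 CPM (median 8.84). Neither gene overlapped between the genotypes. Their log2 fold changes were -1.69 ± 0.28 (adjusted p = 0.00206) and -1.32 ± 0.24 (adjusted p = 0.00397). The 2 genes share sequence: 50.0% of the 75-base stretches of Hist1h3e also occur in Hist1h3f. Genes of a family were linked where at least 20% of the 75-base stretches of 1 occur in another. Linked genes were then summed into units. With the 9 linked H3 genes counted as 1 unit, an alternative chosen after seeing the data, the log2 fold change was -1.13 ± 0.15 (adjusted p = 0.000343). Another H3 gene, Hist1h3a, did not pass the test (-1.47 ± 0.47, adjusted p = 0.0739), with 1 Het library, number 10, at 2.86 CPM among the KO values. Summed over the 12 H3 genes, the level was 38.6 ± 3.77 CPM (SD, n = 6) in KO and 82.2 ± 20.4 CPM (n = 7) in Het, without overlap.

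Hist2h2ac was at 18.3 to 35.2 CPM (median 25.9) in KO and 38.8 to 61.6 CPM (median 56.3) in Het, a log2 fold change of -0.94 ± 0.16 (adjusted p = 0.00297). Hist1h2al was at 26.5 to 68.8 CPM in KO and 90.4 to 173 CPM in Het (-0.79 ± 0.23, adjusted p = 0.0465). Both were without overlap, but the call for Hist1h2al was lost in 12 of the 13 fits that left out 1 library (adjusted p up to 0.0858), while Hist4h4, Hist1h3e, Hist1h3f and Hist2h2ac kept theirs in all 13. A fit of all 64 libraries ended the Hist1h3f call (adjusted p = 0.172). Hist1h2al also lost its call without the filter on low counts or with the share on Gm26917 and Yam1 as a covariate.

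The abundant H1 genes were not called in naive microglia of the second kind. Hist1h1c was at 155 to 643 CPM (median 344) in KO and 506 to 1279 CPM (median 555) in Het (-0.84 ± 0.36, adjusted p = 0.188), with overlapping ranges, and Hist1h1e had a log2 fold change of -0.90 ± 0.38 (adjusted p = 0.18). H1 levels stood in separate bands by replicate number within each genotype. The summed H1 level was 329 to 456 CPM in KO 6 to 8 and 1287 to 1663 CPM in KO 9 to 11, against 1148 to 1178 CPM in Het 5 to 8 and 2120 to 2897 CPM in Het 9 to 11. KO lay below Het in each band of numbers. The labels do not say what the numbers stand for. The bands were drawn after these levels were seen, and no band was tested by itself. Hist4h4 did not follow the bands in KO (5.25 to 7.15 CPM across all 6) and was at 26.7 to 52.2 CPM in Het 5 to 8 and 13.5 to 26.0 CPM in Het 9 to 11.

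**Figure D2:**
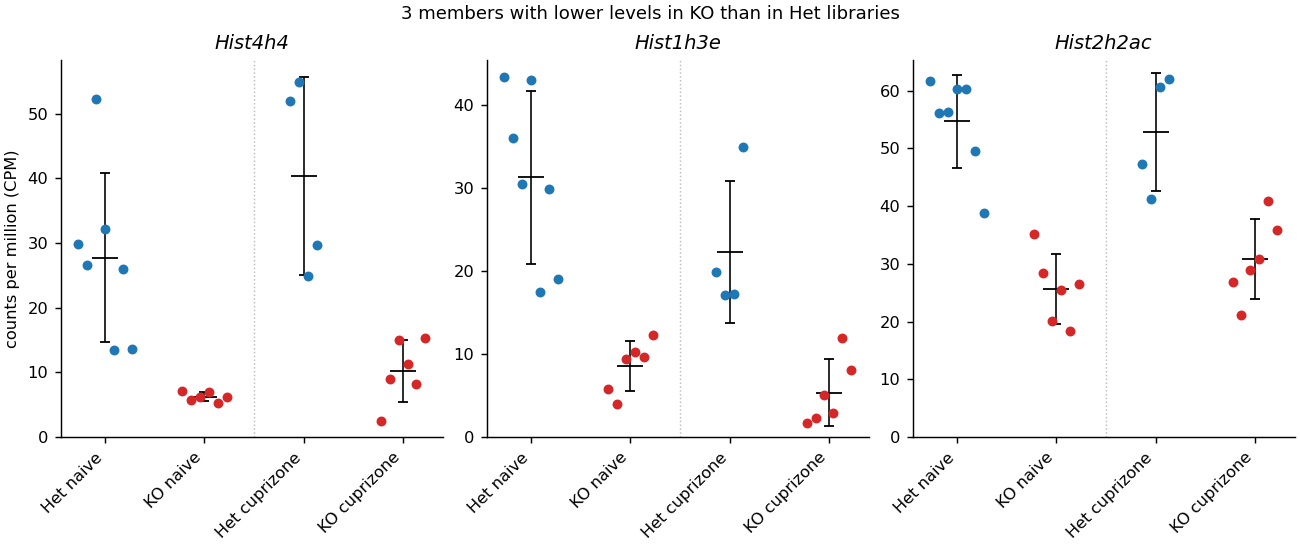
CPM of Hist4h4, Hist1h3e and Hist2h2ac in naive KO and Het libraries of the second kind and in cuprizone libraries; points are libraries (Het blue, KO red), bars the mean ± SD, and each axis starts at 0. For each gene, every KO library lies below every Het library of the same treatment.

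On cuprizone, 7 histone genes fell in KO against Het and 0 rose: Hist4h4, the H3 genes Hist1h3a and Hist1h3e, the H1 gene Hist1h1a, the H2B gene Hist1h2be, and the H2A genes Hist1h2ac and Hist2h2ac. These are 7 of 42 histone genes tested (16.7%), where 5.98% of all 11031 genes were called lower and 3.7% higher, and 34 of the 42 log2 fold changes were below 0 (median -0.43, against 0.01 over all genes). Hist4h4 was at 2.55 to 15.3 CPM (median 10.2) in the 6 KO libraries, and at 51.9, 54.9, 24.9 and 29.7 CPM in Het 1 to 4. Every KO library lay below every Het library. The fall was 3.69-fold (log2 fold change -1.88 ± 0.38, adjusted p = 0.0092).

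Hist1h3a was at 0.603 to 6.51 CPM (median 3.42) in KO and at 6.53, 18.6, 18.9 and 24.7 CPM in Het, so that the highest KO and the lowest Het library nearly met (-2.22 ± 0.52, adjusted p = 0.0196). Hist1h3e was at 1.70 to 11.97 CPM (median 4.02) in KO and 19.9, 17.1, 17.2 and 34.9 CPM in Het (-1.98 ± 0.48, adjusted p = 0.0243). Counting the 9 linked H3 genes as 1 unit gave -1.27 ± 0.26 (adjusted p = 0.00967). The summed H3 level was 31.1 ± 7.90 CPM (SD, n = 6) in KO against 73.0 ± 23.0 CPM (n = 4) in Het, without overlap. Hist1h1a, an H1 gene of low level, was at 1.42 to 4.24 CPM (median 2.38) in KO and 12.4, 5.57, 7.38 and 11.6 CPM in Het (-1.79 ± 0.37, adjusted p = 0.0112).

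Hist1h2be was at 22.2 to 36.4 CPM (median 27.7) in KO and 48.3, 53.8, 56.0 and 62.4 CPM in Het (-0.86 ± 0.16, adjusted p = 0.00721). Every KO library lay below every Het library. Hist1h2ac (-0.84 ± 0.24, adjusted p = 0.0498) and Hist2h2ac (-0.72 ± 0.20, adjusted p = 0.0464) also had ranges without overlap, 9.23 to 18.6 against 20.5 to 34.6 CPM and 21.2 to 40.9 against 41.2 to 62.1 CPM. The abundant Hist1h1c did not pass (-0.67 ± 0.35, adjusted p = 0.249), nor did Hist1h2al (-0.64 ± 0.19, adjusted p = 0.0575). Without Het cuprizone 1 or Het cuprizone 4 there were 3 calls, while Hist4h4 and Hist1h2be kept theirs in all 10 fits that left out 1 library. Hist1h3e lost its call without Het 1 (adjusted p = 0.0535) or Het 4 (0.087), Hist1h3a without Het 3 (0.0534) or Het 4 (0.0676) and Hist1h1a without Het 1 (0.0504), and Hist1h2ac and Hist2h2ac lost theirs in 9 and 7 of the 10. With the share on Gm26917 and Yam1 as a covariate, Hist1h3a, Hist1h2ac and Hist2h2ac lost their calls. A fit of all 64 libraries ended those of Hist1h2be (adjusted p = 0.0559), Hist1h2ac and Hist2h2ac. Without the filter on low counts, Hist1h2ac and Hist2h2ac lost theirs. The Hist1h2ac call was also lost with sex as a covariate or with DESeq2 size factors.

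Hist4h4, Hist1h3e and Hist2h2ac were called lower both in the naive libraries of the second kind and on cuprizone, 3 of the 5 and 3 of the 7 genes called. The 2 comparisons share no library. On cuprizone the Hist2h2ac call was kept in only 5 of 8 alternative fits and in 3 of 10 that left out 1 library. The summed level of all histone genes was 1472 ± 713 CPM (SD, n = 6) in KO and 2589 ± 803 CPM (n = 7) in Het in the naive libraries, with overlap over all 13. Within the bands of replicate numbers there was none: 663 to 999.95 CPM in KO 6 to 8 against 1989 to 2067 CPM in Het 5 to 8, and 1879 to 2388 CPM in KO 9 to 11 against 2859 to 4111 CPM in Het 9 to 11. The bands were drawn from H1 levels, a median of 57.89% of this sum, so they do not test the difference. By family, H4 overlapped in both bands. H2B overlapped in numbers 9 to 11 (KO 201.81 to 262.74 CPM, Het 250.82 to 340.94 CPM), and H1, H2A and H3 overlapped in neither band. On cuprizone the summed level of all histone genes was 954 ± 264 CPM (n = 6) in KO and 1487 ± 152 CPM (n = 4) in Het, without overlap. The share on Gm26917 and Yam1 was 2.22% to 2.49% in KO 5 and 6 and Het 3 and 4, and 3.62% to 6.70% in the others. Summed H1 was 699 and 739 CPM in KO 5 and 6, 190 to 452 CPM in KO 1 to 4, and 564 to 775 CPM in Het 1 to 4. By Y-linked genes, KO 1 and 4 and Het 1 and 2 are male and the others female. This split was seen after the levels and was not tested.

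**Figure D3:**
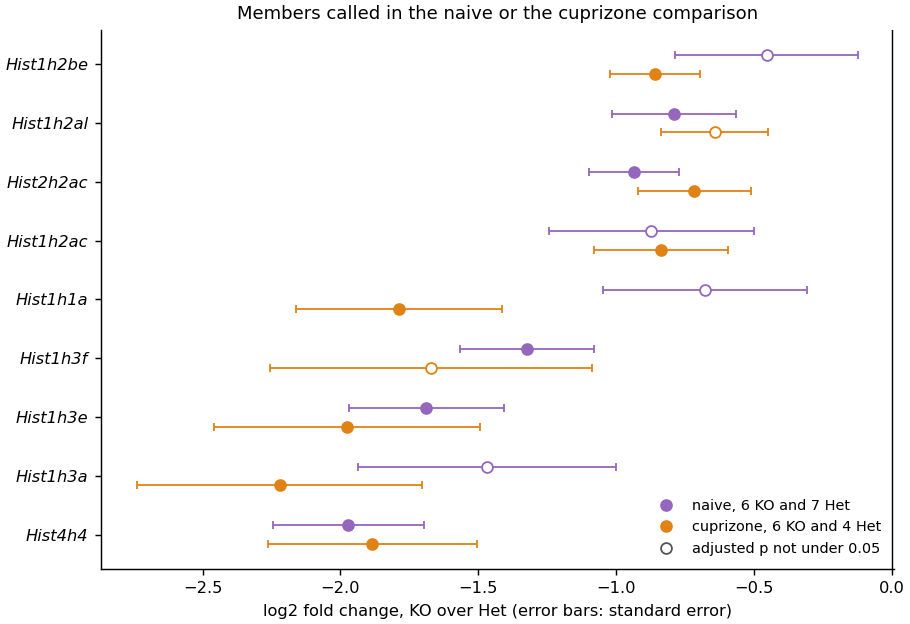
Log2 fold change (KO over Het) ± SE of the 9 histone genes called lower in the naive libraries of the second kind or on cuprizone; filled points have an adjusted p under 0.05 and open points do not. All plotted values are below 0, and Hist4h4 and Hist1h3e are filled and under -1.6 in both comparisons.

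Genes around histone supply were read in the same fits. H3f3b, which encodes the replacement histone H3.3 and is transcribed outside S phase too, fell in KO in both comparisons: from 586 to 798 CPM in Het to 189 to 362 CPM in KO in the naive libraries (-1.19 ± 0.16, adjusted p = 0.000489), and from 1022 to 1901 CPM to 208 to 468 CPM on cuprizone (-2.14 ± 0.28, adjusted p = 0.000982). It was the only one of 9 replacement histone genes tested that was called in either. None of the tested genes for histone transcription and mRNA processing was called by edgeR (15 tested in the naive libraries, 14 on cuprizone), Slbp included (log2 fold changes -0.35 and -0.10). Of the DNA replication and S phase genes, Pcna, the sliding clamp of DNA polymerase, was the only one called. It was at 28.1 to 46.6 CPM in KO and 39.5 to 148 CPM in Het in the naive libraries (-1.27 ± 0.28, adjusted p = 0.0115) and at 41.3 to 56.6 against 111 to 194 CPM on cuprizone (-1.50 ± 0.18, adjusted p = 0.000504). Of the G2 and mitosis genes, 0 of 20 were called in the naive libraries (median log2 fold change 0.55), and on cuprizone 2 of 13 rose, the spindle genes Tpx2 (2.58 ± 0.50) and Prc1 (2.33 ± 0.53), and 0 fell. Their summed level on cuprizone was 107 to 195 CPM in KO and 35.0 to 99.0 CPM in Het.

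Few marker genes were called in these 2 comparisons. In the naive libraries 1 of 10 microglia markers fell, and 1 of 5 endothelial markers rose and 1 fell. On cuprizone 1 of 10 microglia and 1 of 2 neuron markers rose. There, 1 of 9 tested markers of border-associated macrophages fell, and the list's summed level was 331 to 757 CPM in KO and 590 to 1355 CPM in Het. The list of 8 neutrophil markers summed to 0 to 4.8 CPM in the naive libraries. The part of these cells in the histone values was not tested, and in bulk RNA fewer cells of a type and less RNA per cell cannot be told apart.

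In the first kind of library the histone genes that passed the test were higher, not lower, in KO. The contrast was widest after repopulation, where 10 of 47 tested genes rose in KO against WT and 0 fell (21.3%, where 6.68% of all 15664 genes were called higher and 6.26% lower). Against Het, 5 of 47 rose and 0 fell (10.6%, against 6.37% of all genes called higher and 6.21% lower). The median log2 fold change of the 47 was 1.33 against WT and 0.71 against Het, where that of all genes was -0.01 in the first. The 2 comparisons share the 4 KO libraries. Called in both were the H1 genes Hist1h1c, Hist1h1d and Hist1h1e and the H2A gene Hist2h2ac. By Y-linked genes, KO 1 is the only female of the 4 KO libraries and Het 4 the only male of the 4 Het. WT 1 and 2 are female and WT 3 and 4 male. With sex as a covariate the genes called in both kept their calls. Hist1h2bf against WT and Hist1h2ap against Het lost theirs.

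Hist1h1c, the most abundant H1 gene, was at 50.4, 145, 140 and 249 CPM in KO repopulation 1 to 4, at 27.1, 28.2, 30.5 and 38.1 CPM in WT, and at 31.8, 37.6, 32.4 and 72.7 CPM in Het. KO and WT did not overlap, while Het 4 lay above KO 1. The log2 fold change was 2.23 ± 0.44 against WT (adjusted p = 0.000627) and 1.76 ± 0.43 against Het (adjusted p = 0.00552). Hist1h1d was at 2.74, 6.39, 9.0 and 4.50 CPM in KO, at 0.065, 0.425, 0.661 and 0.516 CPM in WT, and at 0.236 to 1.196 CPM in Het. Every KO library lay above every control, by 13.4-fold against WT (3.75 ± 0.69, adjusted p = 0.000346) and 10.2-fold against Het (3.35 ± 0.67, adjusted p = 0.000926). Hist1h1e was at 1.90, 10.4, 6.85 and 7.62 CPM in KO and at 0.331 to 1.10 CPM in WT (3.01 ± 0.63, adjusted p = 0.00119), and the value against Het was 2.58 ± 0.61 (adjusted p = 0.00429). Part of the Hist1h1e transcript overlaps that of Hist1h2be on the same strand, and 22.7% of its 75-base stretches also occur there. Counts of the 2 genes can therefore share reads under any strand setting.

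The other genes called against WT were scarcer. Hist2h2ac was at 0.532 to 2.21 CPM in KO against 0.065 to 0.283 CPM in WT (3.06 ± 0.87, adjusted p = 0.0181) and 0.071 to 0.299 CPM in Het (3.56 ± 0.90, adjusted p = 0.0079). Hist1h2be was at 3.90 to 4.803 CPM in KO against 1.06 to 2.56 CPM in WT, without overlap (1.201 ± 0.31, adjusted p = 0.00835). Hist1h1b had 31 counts in KO against 1 in WT (ratio 30.01, 95% counting interval 5.0 to 1223.23, adjusted p = 0.0149), and the H2B gene Hist1h2bf 39 against 1 (ratio 37.76, 6.39 to 1529.16, adjusted p = 0.043). The H2B gene Hist1h2bk had 53 counts against 0, at least 17.1-fold higher (adjusted p = 0.0358), and the H4 gene Hist1h4n 220 against 0, at least 71.0-fold higher (adjusted p = 0.0233), with KO 1 at 0. These bounds put the floor at 3 counts over the group. The bounds and the counting intervals use counts pooled over each group and leave out the spread between libraries. Over the KO libraries Hist1h2bk ranged from 0 to 2.14 CPM and Hist1h2bf from 0 to 1.41 CPM, and both overlapped WT. Against Het, Hist1h2ap rose as well (0.76 ± 0.26, adjusted p = 0.0463). Without WT repopulation 1 there were 6 calls against WT, with Hist1h1b (adjusted p = 0.0534) and Hist2h2ac (adjusted p = 0.0668) among those lost; Hist1h2bk, Hist1h2bf and Hist1h4n lost theirs in 6 of 8, 4 of 6 and 4 of 8 fits that left out 1 library, as did Hist1h2ap against Het in 6 of 8.

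Genes linked by shared sequence, as described for H3, were also summed, and 54 of the genes fall into 7 such units. Links pass through other genes, so a unit can hold mostly distinct genes, such as Hist1h2ac (88.9% unique 75-base stretches). As 1 unit, 10 linked H4 genes rose in KO against WT (1.67 ± 0.28, adjusted p = 9.84e-05) and against Het (1.43 ± 0.28, adjusted p = 6e-04). The unit of 13 H2A genes, with Hist1h2ah and Hist1h2ap among them, rose by 1.40 ± 0.27 (adjusted p = 0.000655) and 1.00 ± 0.27 (adjusted p = 0.0127). This alternative was chosen after seeing the data.

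The count share of Gm26917 and Yam1 was high in many libraries with much H1. It was 0.195% to 0.276% in the KO repopulation libraries, 0.102% to 0.153% in WT and 0.09% to 0.18% in Het, and naive KO 4, with the highest naive H1 sum (191 CPM, the other 4 at 38.8 to 51.5), had 0.257%. Het depletion 2 and WT depletion 2 had shares of 0.226% and 0.231% with H1 sums of 41.4 and 34 CPM. With the share as a covariate, a fit added after seeing the data, the calls fell from 10 to 2 against WT after repopulation (Hist1h1d and Hist1h2ah), from 5 to 0 against Het, and from 3 to 0 for naive KO against Het. After repopulation the shares of KO and control libraries did not overlap, so share and genotype cannot be told apart there.

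**Figure D4:**
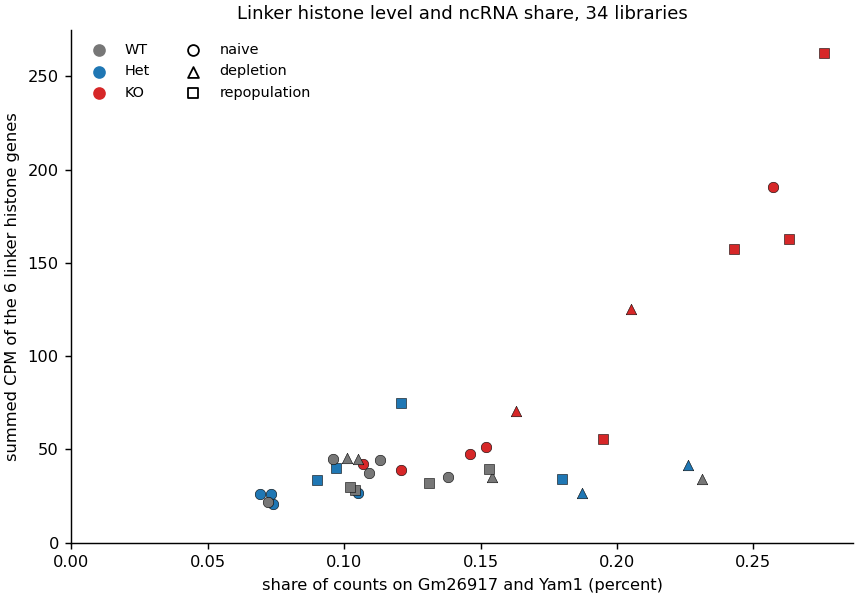
Summed CPM of the 6 H1 genes against the count share of Gm26917 and Yam1 in percent for the 34 libraries of the first kind; each point is a library, marked by genotype and treatment. KO libraries with shares above 0.2% reach 125 to 263 CPM, while Het depletion 2 and WT depletion 2 stay at 41.4 and 34 CPM.

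G2 and mitosis genes rose in the same KO repopulation libraries: 10 of 22 against WT (median log2 fold change 1.31) and 7 of 22 against Het (median 1.12), and 0 fell in either. Examples against WT are Cdc20, an activator of the anaphase-promoting complex (1.27 ± 0.32, adjusted p = 0.0072), Ube2c, its ubiquitin-conjugating enzyme (1.71 ± 0.44, adjusted p = 0.00842), Ccnb2, a mitotic cyclin (1.84 ± 0.48, adjusted p = 0.0103), and Aurkb, a mitotic kinase (1.88 ± 0.52, adjusted p = 0.0158). The list summed to 92.5 to 97.7 CPM in KO, 29.6 to 55.9 CPM in WT and 38.0 to 70.1 CPM in Het. Of 29 DNA replication and S phase genes tested, 0 rose and 1 fell against WT, the helicase subunit Mcm7 (-0.84). Of 15 histone transcription and processing genes tested, 0 were called against WT, with Slbp at -0.27 (adjusted p = 0.143). Against Het, 2 of the 15 rose and 0 fell: Cstf2, a subunit of the cleavage stimulation factor (1.05 ± 0.25, adjusted p = 0.00469), and Ncbp1, a subunit of the cap-binding complex (0.35 ± 0.09, adjusted p = 0.00495). Among the markers, 3 of 10 microglia, 2 of 8 endothelial and 1 of 7 monocyte genes fell in KO against WT and 1 of 8 lymphocyte genes rose; their part in the histone values was not tested.

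Hist1h2ah, an H2A gene on chromosome 13, gave the widest difference of any clustered histone gene between KO and WT. It had counts in all 11 KO libraries of the first kind: 15.2, 21.1, 17.4, 14.6 and 15.2 CPM in naive KO 1 to 5, 15.98 and 19.9 CPM on depletion, and 8.14, 21.7, 26.4 and 16.6 CPM after repopulation. In naive WT it was at 0 in 4 libraries and at 0.321 CPM in WT 3, and in WT repopulation it was at 0 in all 4 libraries. Naive Het libraries lay between, at 0, 4.90, 6.20 and 4.41 CPM, below every naive KO library. Het repopulation libraries were at 9.70, 5.85, 4.99 and 0 CPM, of which Het 1 lay above KO repopulation 1 and the others lay below every KO library.

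The naive difference between KO and WT was 7.67 ± 1.28 on the log2 scale (adjusted p = 0.000351). After repopulation, 1009 counts in KO stood against 0 in WT, at least 325.63-fold higher (adjusted p = 0.00022). Both calls held under all 8 alternatives and without each library in turn. Het against WT did not pass (5.57 ± 1.32, adjusted p = 0.124). Only 10.0% of the 75-base stretches of Hist1h2ah are unique in the annotated transcripts, and 86.4% also occur in Hist1h2ad, so the counts cannot be placed on 1 copy with certainty. Hist1h2ad itself, a gene chosen after its values were seen, was at 0 in 10 of the 11 KO libraries and at most at 1.78 CPM in any of the 34. Summed over the 13 linked H2A genes, naive KO exceeded WT by 0.89 ± 0.24 (adjusted p = 0.0252) and Het by 1.35 ± 0.27 (adjusted p = 0.00111). Hist1h2ah and the targeted gene lie on the same chromosome, with 8.5 Mb between them. In the second kind of library the order was not seen: Hist1h2ah was at 0 to 6.52 CPM in naive KO and 0 to 21.8 CPM in naive Het.

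**Figure D5:**
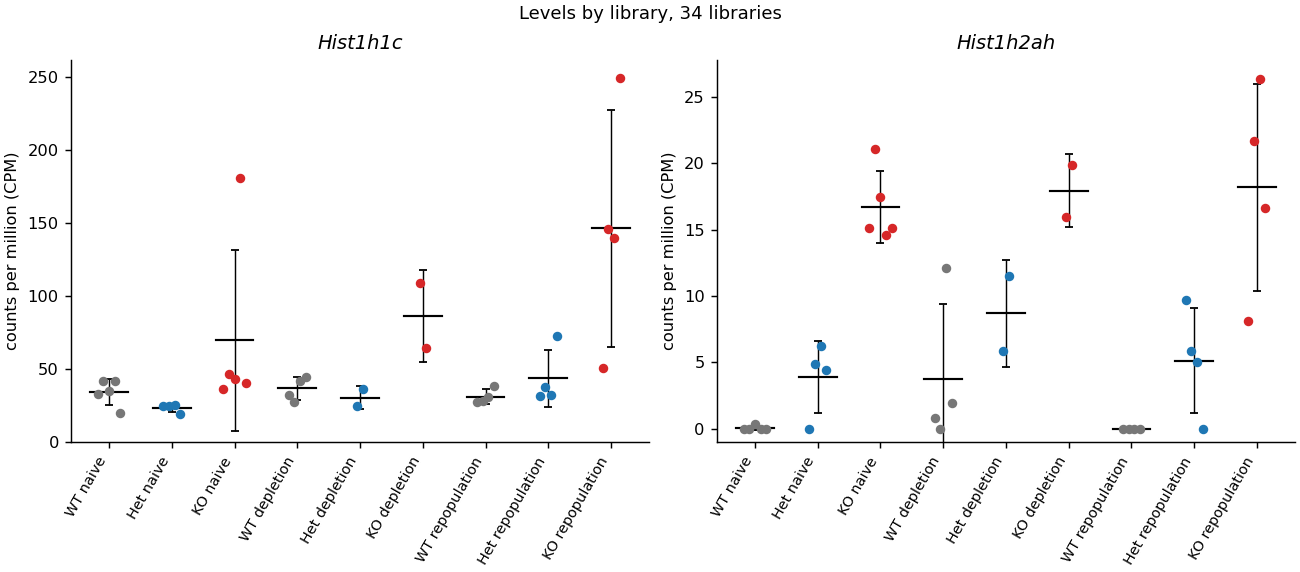
CPM of Hist1h1c and Hist1h2ah in each of the 34 libraries of the first kind by genotype and treatment; points are libraries (WT grey, Het blue, KO red) and bars the mean ± SD. Hist1h2ah lies at 8.14 to 26.4 CPM in the 11 KO libraries and at 0 in the 4 WT repopulation libraries.

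Apart from Hist1h2ah, naive differences were small in number. Against WT, 1 of 47 histone genes was called higher in naive KO and 0 lower (2.13%, where 2.57% of all genes were called higher and 2.59% lower), and DESeq2 called 3. Against Het, 3 rose and 0 fell (6.38%, against 4.35% of all genes called higher and 4.11% lower). Hist1h1c was at 36.4, 46.8, 43.1, 181 and 40.2 CPM in KO and at 24.9, 24.7, 25.1 and 19.4 CPM in Het, without overlap (1.55 ± 0.42, adjusted p = 0.0166). The others were Hist1h1e (1.86 ± 0.59, adjusted p = 0.0468) and Hist1h2ap (0.94 ± 0.25, adjusted p = 0.0149), which overlapped at 10.8 to 22.4 against 7.13 to 11.3 CPM. The Hist1h1c call was lost without KO naive 4 (0.81, adjusted p = 0.153) or Het naive 4 (1.44, adjusted p = 0.0614), and without Het naive 4 there were 0 calls. Hist1h1e lost its call in 6 of 9 such fits, and Hist1h2ap without Het naive 1 (adjusted p = 0.0625) or Het naive 4 (adjusted p = 0.0597). Sex, read from 4 Y-linked genes, is uneven here (4 male and 1 female KO, 1 male and 3 female Het); with sex as a covariate the Hist1h1c and Hist1h1e calls were lost and 1 call, Hist1h2ap, was left. Between naive Het and WT, edgeR called 0 of 47 genes, as it called 0% of all genes; 7 histone genes had an unadjusted p under 0.05 and DESeq2 called 1.

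Depletion changed few histone genes. In WT, 2 of 47 rose and 0 fell against naive (4.26%, where 3.72% of all genes were called higher and 3.79% lower). Hist3h2a, an H2A gene, was at 50.8, 54.4, 52.8 and 49.2 CPM on depletion and at 31.3, 36.1, 23.8, 35.0 and 52.6 CPM in naive WT, where WT 5 overlapped (0.61 ± 0.17, adjusted p = 0.0192). The annotated Hist3h2a overlaps the gene Trim17 on the same strand. Of its 75-base stretches 69.4% are unique, and its closest histone gene shares 0.8%. Hist1h2ah was at 0.814, 0, 12.1 and 1.97 CPM on depletion (5.60, adjusted p = 0.00839), a call lost without WT depletion 3 (3.63, adjusted p = 0.123). Hist3h2a lost its call without WT naive 1 (adjusted p = 0.053), WT naive 3 (0.0642) or WT depletion 2 (0.0601). In KO, edgeR called 0 of the tested genes, where 5.62% of all genes were called, with 3 at an unadjusted p under 0.05 and 1 called by DESeq2. Within depletion, 1 gene rose and 0 fell in KO against the mean of Het and WT (2.13%, where 2.9% of all genes were called higher and 2.5% lower): Hist1h1d, at 9.02 and 2.56 CPM in the 2 KO libraries and 0.339 to 1.72 CPM in the 6 controls (2.598 ± 0.68, adjusted p = 0.0185). That call was lost without KO depletion 1 (1.43, adjusted p = 0.53) or Het depletion 1 (2.24, adjusted p = 0.0926), and without Het depletion 2 there were 3 calls.

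Markers of other cells moved in the depletion comparisons. Against naive, 9 of 10 border-associated macrophage markers fell in WT, where their sum was 624 to 1107 CPM on depletion and 2112 to 3697 CPM in naive libraries, and 7 of 10 fell in KO. Also in WT, 3 of 7 tested monocyte markers and 2 of 10 microglia markers fell, and in KO 4 of 10 microglia markers did. In KO against the other genotypes on depletion, 5 of 10 microglia markers fell (35006 to 35741 CPM in KO, 44551 to 49131 in Het and 45623 to 46061 in WT) and 2 of 7 neutrophil markers rose (0.172 and 62.6 CPM in the 2 KO libraries and 0.25 to 4.65 CPM in the controls). Their part in the histone values was not tested.

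Repopulation against naive was compared within each genotype. In KO, 4 genes rose and 0 fell (8.51%, where 5.41% of all genes were called higher and 3.24% lower): Hist1h1d (2.10 ± 0.58, adjusted p = 0.0202), Hist2h2aa1, which went from 9.95 to 14.1 CPM to 17.4 to 36.7 CPM (1.25 ± 0.36, adjusted p = 0.0268), Hist1h1c (1.22 ± 0.39, adjusted p = 0.0498), and Hist1h2bf with 39 counts against 1 (ratio 45.52, 95% counting interval 7.7 to 1843.47, adjusted p = 0.0283). Hist1h2bf overlapped between the groups, at 0 to 1.41 CPM after repopulation and 0 to 0.075 CPM in naive KO. Without KO naive 1 there were 0 calls (adjusted p from 0.0587 to 0.136). In Het, 1 gene rose and 0 fell (2.13%, against 7.28% of all genes called higher and 5.97% lower), Hist1h2ap (0.79, adjusted p = 0.0396), and it lost the call without any 1 of 5 of the 8 libraries. In WT, edgeR called 0 histone genes, where 7.71% of all genes were called, with 3 at an unadjusted p under 0.05 and 2 called by DESeq2. Of the 75-base stretches of Hist2h2aa1, 11.1% are unique and 88.7% also occur in Hist2h2aa2. The linked unit of 4 H2A rows that holds both, summed after seeing the data, rose in each genotype. Its edgeR values were 0.83 ± 0.15 in KO (adjusted p = 0.000319), 0.93 ± 0.16 in Het (0.000109) and 0.48 ± 0.15 in WT (0.0447). The repopulation response of KO minus that of WT was called in 0 histone genes, where 0.23% of all genes were called. There, 8 had an unadjusted p under 0.05, the smallest being that of Hist1h1d (3.19 ± 0.87, adjusted p = 0.135), and DESeq2 called 1. All 10 border-associated macrophage markers fell in each of these 3 repopulation contrasts (median -3.77 in WT); their part in the histone values was not tested.

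Against depletion, WT repopulation libraries had 2 histone genes that fell and 0 that rose (4.26%, where 3.74% of all genes were called lower and 6.22% higher). Hist1h2be went from 3.43 to 5.43 CPM to 1.06 to 2.56 CPM (-1.21 ± 0.31, adjusted p = 0.0103), without overlap. Hist1h2ah went from 178 counts over the group to 0, at least 72.18-fold lower (adjusted p = 0.00624); 145 of those counts were in WT depletion 3, without which the call was lost (adjusted p = 0.0576). G2 and mitosis genes fell in 6 of 22 cases in this comparison. Cenpa, a histone H3 variant of centromeres from the separate list of replacement histones, had a log2 fold change of -1.52. Of the markers, 5 of 10 border-associated macrophage genes fell, 3 of 10 microglia genes rose, and 3 of 7 neutrophil genes rose (2.05 to 58.5 CPM summed after repopulation, 0.25 to 4.09 CPM on depletion); their part in the histone values was not tested.

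In the fourth kind of library, 1 of 64 histone genes tested rose and 0 fell in old against adult Het (1.56%, where 0.437% of all 15786 genes were called higher and 0.108% lower). Hist2h2aa1 was at 65.8, 89.6 and 74.9 CPM in the old and at 48.8 and 55.6 CPM in the adult libraries, without overlap (0.94 ± 0.14, adjusted p = 0.0498). Only 11.1% of its 75-base stretches are unique and 88.7% also occur in Hist2h2aa2, so these counts cannot be placed on 1 copy with certainty. The median log2 fold change of the 64 was 0.80, where that of all genes was 0.02, 57 of 64 were above 0, and 28 had an unadjusted p under 0.05. The shares of all genes above 0 or at that unadjusted p were not taken, so these 2 counts have no background beside them. The number of calls went to 0 without any 1 of old 1, old 3, adult 12 or adult 13, and to 9 without old 2. The share on Gm26917 and Yam1 was 5.94%, 13.6% and 8.04% in the old and 4.82% and 5.50% in the adult libraries. With that share as a covariate, added after seeing the data, the Hist2h2aa1 call was lost and there were 0 calls. The 10 microglia markers summed to 13152 to 18614 CPM in the old and 27398 to 30906 CPM in the adult libraries, without overlap and with 0 of 10 called. Of 6 red blood cell markers tested 1 fell (median log2 fold change -2.59), and the G2 and mitosis genes had 21 of 22 values above 0 (median 1.15) with 0 called. The part of these cells in the histone values was not tested.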

How the data were processed

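For 64 libraries the authors deposited whole-number counts, which were used as they stand, 1 value for each gene in each library. Per the submitters' processing notes the tools were bcl2fastq 2.20, Trim Galore 0.6.7, STAR 2.6.1d and Salmon 1.5.2 on GRCm38. Which of them made the counts, the strand setting, and how reads that fit several places were treated are not given in the sources used here. Of the annotated members, 14 have under 20% unique 75-base stretches. Libraries were made with a stranded total RNA kit, per the labels' protocols.

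Genes were kept with filterByExpr (minimum count 10, minimum total 15), scaled by TMM and tested within each of the 4 library kinds with edgeR 4.0.16 (glmQLFit and glmQLFTest, 1 mean per group, two-sided, Benjamini-Hochberg over all genes of the kind, threshold 0.05) in R 4.3.3. This gave 16 comparisons. A gene is called higher or lower, or said to rise or fall, where the adjusted p is under 0.05. Counts of histone genes at an unadjusted p under 0.05 are given without the share of all genes at that cut, which was not taken. CPM is counts per M of a library's total. Kinds were set by a share of counts on Gm26917 and Yam1 under 1% (the first), a total above 15 M (the fourth) or under 5.5 M (the third). A count of 0 allows up to 3 counts, or 0.125 to 1.11 CPM, for counting error only. Alternatives used DESeq2 1.42.0, other fits and leaving out each library.

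On simulated counts the test recovered 85% of 4-fold and 63% of 2-fold changes for KO against WT after repopulation, 90% and 55% in the naive libraries of the second kind, 95% and 55% on cuprizone, and 62% and 24% for old against adult. These rates were read over 200 altered genes in each comparison. Unaltered genes were called too, 1 beside 148 altered genes called for KO against WT after repopulation. In the naive libraries of the second kind there were 5 such false calls beside 145. On cuprizone there were 11 beside 150, and for old against adult 9 beside 86. Recovery was not read separately for genes of low level, and that for the histone genes by themselves was not tested. Some of those called have low mean levels in the first kind, such as Hist2h2ac (0.58 CPM) and Hist1h1b (0.194 CPM). No pair of libraries was identical.

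Named genes are Uqcrfs1, the 2 members with the highest mean per family, up to 6 called members in each direction per comparison, and up to 4 called genes per pathway list; others were chosen after their values were seen. The members and lists were chosen with earlier results of these data known. Protein sequences were not used here.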

Additional observations from a re-analysis of the deposited data

Results flagged for a closer look

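Of 66 groups of 4 to 7 libraries read on summed levels, 10 had a highest or lowest library set far apart from the rest of its group, and of 61 read on called genes 9 did; chance flags about 1 in 20 groups. Naive KO 4 of the first kind stood apart in the summed level of all histone genes (361.27 CPM, the others at 160 to 203), in summed H1 (190.59 CPM, the others at 38.8 to 51.5) and in Hist1h1c (180.543 CPM, the others at 36.4 to 46.8). Het naive 4 was low in H1 (20.49 CPM, the others at 26.3 to 26.6) and in Hist1h1c (19.408 CPM). Het repopulation 4 was high in H1 (75.14 CPM, the others at 33.4 to 39.9), in Hist1h1c (72.668 CPM) and in Hist2h2ac (0.299 CPM, the others at 0.071 to 0.081). WT depletion 3 was high in H2A (124.47 CPM, the others at 94.9 to 96.8) and Hist1h2ah (12.105 CPM, the others at 0 to 1.97). WT naive 3 was the one naive WT library with Hist1h2ah counts (0.321 CPM), and KO repopulation 1 was low in H4 (14.83 CPM, the others at 20.03 to 20.5).

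In the second kind, Het naive 9 was high in H2A (564.73 CPM, the others at 311 to 404), H2B (340.94 CPM, the others at 190 to 253) and Hist1h2al (172.907 CPM, the others at 90.4 to 106), and KO naive 8 was low in Hist1h2al (26.474 CPM, the others at 56.1 to 68.8). On cuprizone, KO 3 was high in H2A (315.25 CPM, the others at 214 to 242) and H4 (165.16 CPM, the others at 108 to 120), and Het 4 in Hist1h3e (34.92 CPM, the others at 17.1 to 19.9).

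The ratio of KO to Het mean lay on opposite sides of 1 in different conditions, each without overlap between genotypes; the differences between conditions were not tested, and they also separate library kinds. For all histone genes it was 1.536 in naive libraries of the first kind and 1.835 after repopulation, against 0.642 on cuprizone. For H2A it was 1.276 in naive libraries of the first kind, against 0.587 in those of the second and 0.68 on cuprizone. For H2B it was 1.272 after repopulation against 0.615 on cuprizone.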

How the results depend on the processing

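The 42 calls of single genes gave 322 values under other settings, of which 252 kept direction and call, 70 kept direction only and 0 turned; of 378 values with 1 library left out, 278, 100 and 0 did. The numbers of histone genes called were otherwise within 1.5 times the reported ones, and the cause of the following changes was not tested. Without the filter on low counts, 0 were called for repopulation against naive in Het, 2 in KO, and 10 for old against adult. DESeq2's Wald test called 3 for naive KO against WT, 1 for naive Het against WT, 1 for depletion against naive in KO, 2 for repopulation against naive in WT and 2 in Het, 3 for KO against controls on depletion, 1 for the difference of repopulation responses and 12 for old against adult. Fitting only the groups compared gave 0 for depletion against naive in WT, 2 for repopulation against naive in Het and 1 in KO, 0 for repopulation against depletion, and 0 for old against adult. Fitting all 64 libraries gave 2 for naive KO against WT, 0 for depletion against naive in WT, 1 for repopulation against naive in WT and 0 in Het, 3 for KO against controls on depletion, and 4 on cuprizone. Sex as a covariate gave 1 for naive KO against Het of the first kind, 1 for depletion against naive in WT and 1 in KO, and 2 for KO against controls on depletion. The share on Gm26917 and Yam1 as a covariate, added after seeing the data, gave 0 for naive KO against Het of the first kind, 1, 0 and 0 for repopulation against naive in WT, Het and KO, 2 and 0 for KO against WT and against Het after repopulation, and 0 for old against adult. Summing linked genes into units, also added, gave 1 and 1 for depletion against naive in WT and KO, 1 for repopulation against naive in WT, 1 for repopulation against depletion, 2 for KO against controls on depletion, 2 in the naive libraries of the second kind and 0 for old against adult, from fewer units tested.

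The replicate numbers did not pair the libraries: in no comparison did every pair correlate above 0.1 (0.02 to 0.115 in the second kind). With the replicate number as a block, 3 were called for naive Het against WT, 1 for depletion against naive in KO, 1 for repopulation against naive in WT, 3 for KO against controls on depletion and 8 in the naive libraries of the second kind, where 3 of 6 pairs correlated best with their own number. The block also ended the calls of Hist4h4, Hist1h3a, Hist1h1a and Hist1h2ac on cuprizone of Hist1h2bk and Hist1h2bf for KO against WT after repopulation, and of Hist1h2bf for repopulation against naive in KO. Old and adult share no numbers and all 5 libraries are male, so no block or sex fit was run there.

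Leaving out 1 library in turn gave 4 to 5 calls in the naive libraries of the second kind, 3 to 8 on cuprizone, 6 to 10 and 4 to 6 for KO against WT and against Het after repopulation, 1 to 3 for naive KO against WT, 0 to 3 for naive KO against Het of the first kind, 0 to 2 for naive Het against WT, 1 to 3 and 0 to 1 for depletion against naive in WT and KO, 0 to 1, 0 to 2 and 0 to 4 for repopulation against naive in WT, Het and KO, 1 to 3 for repopulation against depletion, 0 to 3 for KO against controls on depletion, 0 to 1 for the difference of repopulation responses, and 0 to 9 for old against adult. Of the 70 genes, 42 passed the filter in the cuprizone libraries, which have the lowest totals, and 64 in the deepest libraries.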

Other observations

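The adult KO libraries 12 and 13 of the fourth kind entered no comparison of the report. Their summed histone level was 747 and 1023 CPM, beside 873 and 1244 CPM in adult Het 12 and 13. Hist4h4 was at 10.8 and 11.4 CPM in these KO libraries and at 17.8 and 26.0 CPM in Het. Hist1h3e was at 3.51 and 6.51 CPM against 9.79 and 12.9 CPM, and Hist1h3f at 2.24 and 2.85 CPM against 5.34 and 9.16 CPM. For these 3 genes, picked because they were called lower in other comparisons, both KO values lay below both Het values. With 2 libraries of each genotype the order was not tested, and the share of all genes with the same order was not taken. Hist2h2ac overlapped, at 26.5 and 33.0 CPM in KO and 31.3 and 42.5 CPM in Het.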
